A study of Mus musculus with 7 samples.

Results

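The complement and coagulation genes examined here are 39 mouse genes, chosen by name from 42256 gene identifiers in a deposited table of whole-kidney RNA counts. They comprise 20 complement genes (components, regulators and receptors) and 19 genes of clotting, anticoagulation and clot dissolution. Kidneys were taken from 3 mice labelled CDH11+/+ and 4 labelled CDH11-/-, all adult males of mixed 129S1/Sv x C57BL/6 strain, where CDH11 is the cell adhesion protein cadherin-11. Every mouse of both groups had 1 kidney removed (uninephrectomy) and received angiotensin II from an implanted osmotic pump at 800 ng/kg/min, and tissue was taken 4 weeks after surgery. No library from an uninjured mouse was analysed here, so each value describes injured kidneys compared by genotype label, and the labels do not say how the allele was made or whether litters were shared.

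Complement is a cascade of plasma and tissue proteins in which the classical, lectin and alternative routes all cleave the central component C3, release small peptides that attract leukocytes, and can end in a pore in the target membrane. Coagulation generates thrombin, which turns fibrinogen into fibrin. Thrombomodulin, activated protein C and the tissue factor pathway inhibitors restrain it, and plasmin, made from plasminogen by tissue-type or urokinase-type activators, dissolves the clot. The liver makes most of the circulating components, while kidney tubules, vessels and macrophages also transcribe some of them, and urokinase is a well-known product of renal tubules.

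Libraries held between 72087906 and 84786351 counts, and levels are given as depth-scaled counts (CPM) on library sizes scaled by the trimmed mean of M values. Lrp2, the proximal tubule receptor megalin, was at 3808 CPM or more in every library, as the kidney label says. Cdh11 itself did not bear out the labels. Its level was 6.79, 4.52 and 10.8 CPM in the libraries labelled CDH11+/+ and 11.3, 9.56, 11.6 and 10.98 CPM in those labelled CDH11-/-, a log2 fold change of 0.56 (SE 0.25, adjusted p = 0.14 in edgeR's quasi-likelihood test). Without CDH11+/+ replicate 3 it was called higher in the libraries labelled CDH11-/- (0.93, edgeR adjusted p = 0.0043). The table gives 1 value per gene and does not show whether part of the transcript was missing, so the genotypes below are those of the labels. CDH11+/+ replicate 3 stood apart from the others of its group: the median chi-square per gene, a measure of disagreement in counts, was 6.07 and 7.48 against CDH11+/+ replicates 1 and 2, which differed from each other by 2.99. In a check made after its values were seen, its summed level of 4 genes of the Y chromosome (Ddx3y, Eif2s3y, Kdm5d, Uty) was also the lowest, at 64.7 CPM against 110.8 to 144.9 CPM. It was the highest of the 3 CDH11+/+ libraries in 25 of 38 tested complement and coagulation genes (65.8%), against 38.3% of all tested genes, so results that rest on it are given with and without it.

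Of the 39 genes, 38 had enough counts to be tested, and 10 of them (26.3%) differed between the groups at an adjusted p under 0.05 in edgeR's quasi-likelihood test, with Benjamini-Hochberg adjustment over 17964 genes. Over all tested genes, 29.7% passed the same threshold, so the share of complement and coagulation genes that changed was near the background of this comparison. Cfb, Cd55, Proc, Tfpi2 and Plg were higher in the libraries labelled CDH11-/-, which is 5 of 38, against a background of 16.8% called higher. C3, Cd59a, C3ar1, Thbd and Plat were lower, again 5 of 38, against 12.9% called lower. In 13 of the 38 genes the libraries of the groups kept apart without overlap, against 38.5% of all tested genes. The median log2 fold change was -0.10 over the 38 genes and -0.01 over all tested genes. Complement and coagulation did not separate by direction, with 2 higher and 3 lower of 19 tested complement genes and 3 higher and 2 lower of 19 coagulation genes. Without CDH11+/+ replicate 3, 11 genes were higher and 4 were lower, where 29.3% of all tested genes were called (15.9% higher and 13.4% lower). Because these are whole kidneys, fewer cells of a type and less RNA per cell cannot be told apart.

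**Figure D1:**
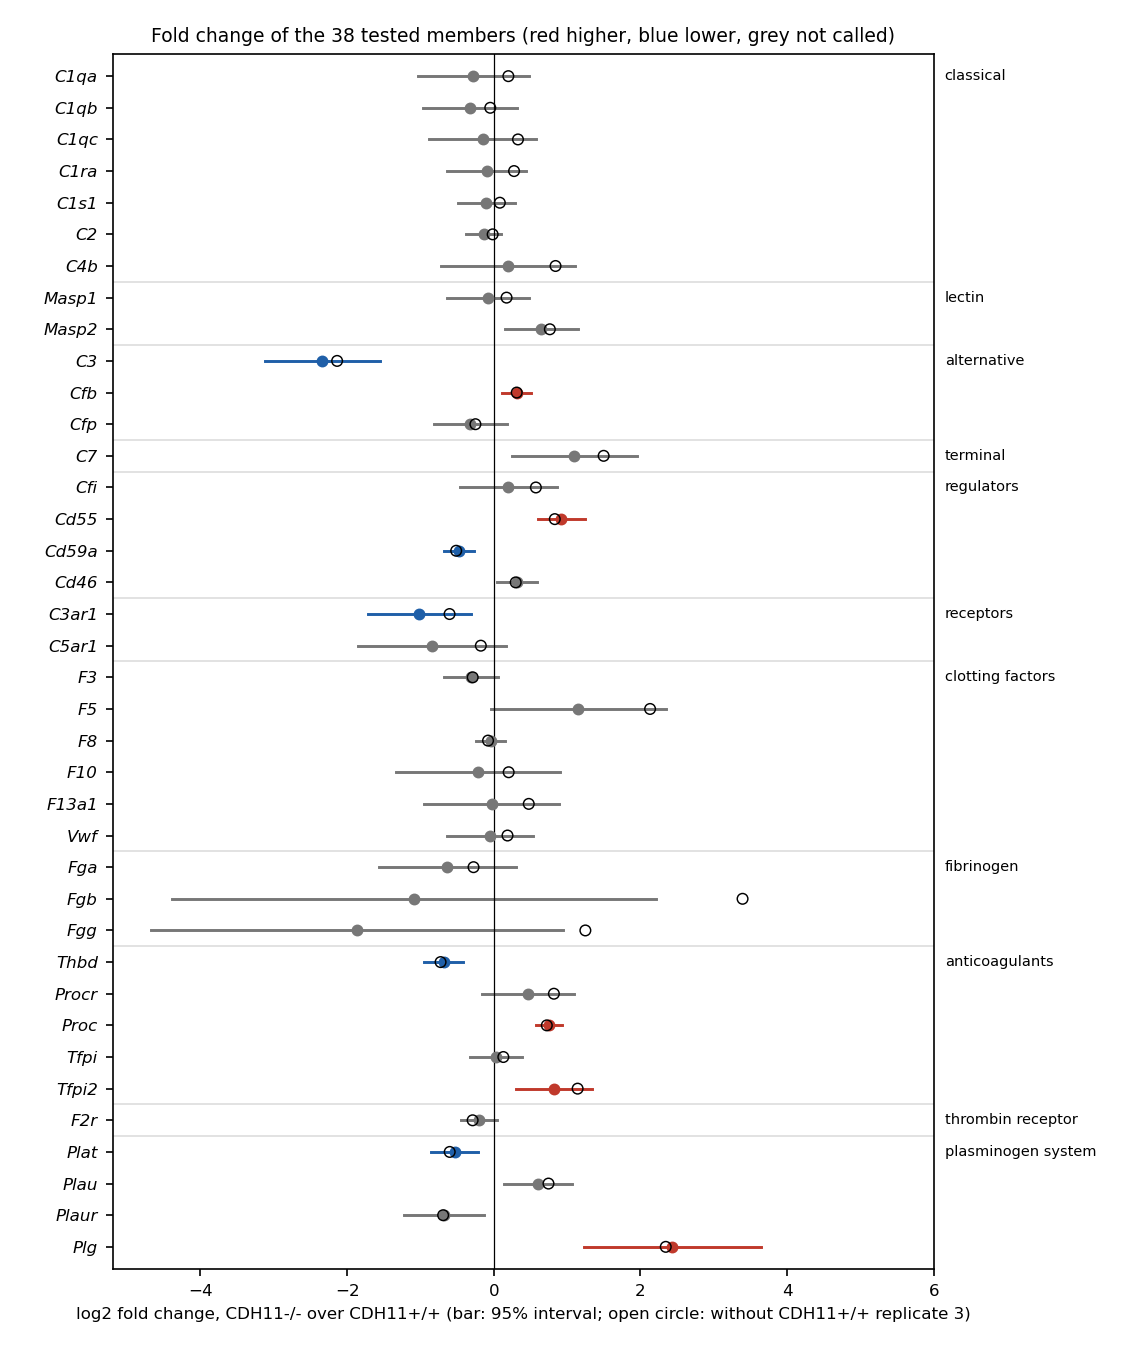
Log2 fold change (x axis, libraries labelled CDH11-/- over CDH11+/+) of each of the 38 tested complement and coagulation genes (y axis), with the 95% interval as a bar and the value without CDH11+/+ replicate 3 as an open circle. The 5 genes called higher are red and the 5 called lower are blue. Fgg and Fgb lie left of 0 with all libraries and right of 0 without that replicate.

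The alternative pathway, in which C3 fragments and factor B amplify cleavage of C3, held the gene with the largest fall among the tested members, C3, and a small rise of Cfb. C3, the central component, is a protein-coding gene on chromosome 17 (mm10 17:57203970-57228136, minus strand). Its level was 147, 173 and 235 CPM in the libraries labelled CDH11+/+ and 55.0, 21.2, 33.2 and 36.8 CPM in those labelled CDH11-/-. The groups were far apart, with the highest CDH11-/- library below the lowest CDH11+/+ library. The mean went from 185 ± 45.2 (SD, n = 3) to 36.5 ± 14.0 (SD, n = 4), 5.06-fold lower, with a log2 fold change of -2.34 (SE 0.33, 95% interval -3.12 to -1.56, edgeR adjusted p = 0.00301). Leaving out any 1 library kept the value between -2.60 and -2.14. Cp, the copper carrier ceruloplasmin and an injured-tubule marker, was lower in the same libraries, from 63.0 ± 10.2 (SD, n = 3) to 20.8 ± 5.01 CPM (SD, n = 4), with a log2 fold change of -1.60 (edgeR adjusted p = 0.000988). In the list of 13 injured-tubule markers 6 were lower and 1 higher, and the markers' summed level was 811 to 1086 CPM in libraries labelled CDH11+/+ and 644 to 868 CPM in those labelled CDH11-/-. The part of these markers in the fall of C3 was not tested.

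The 250 bases before the RefSeq start of C3 are shown because C3 fell most among the tested members. They lie at chr17:57228137-57228386 (RefSeq, GRCm38.p6, minus strand) and are written 5′ to 3′ in the direction of transcription, with matches to 3 searched patterns in capitals.
C3: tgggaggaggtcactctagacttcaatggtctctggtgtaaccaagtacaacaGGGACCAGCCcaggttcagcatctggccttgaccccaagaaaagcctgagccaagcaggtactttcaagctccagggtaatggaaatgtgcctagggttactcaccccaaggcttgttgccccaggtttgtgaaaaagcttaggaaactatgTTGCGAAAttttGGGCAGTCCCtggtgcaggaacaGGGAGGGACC
The patterns were TTCNNNGAA (STAT factors), TTGCNNAA (C/EBP factors) and GGGANNNNCC (NF-kB), each searched on both strands. A match on the opposite strand is given in the letters of the strand shown, where it reads as the reverse complement of the pattern. C3 held the C/EBP pattern as TTGCGAAA, 45 to 38 bases before the start, and the NF-kB pattern 3 times, as GGGACCAGCC at 197 to 188, as GGGCAGTCCC on the opposite strand at 33 to 24 and as GGGAGGGACC at 10 to 1. Over 32851 RefSeq windows of the same length, 9.56% held the C/EBP pattern and 17.6% the NF-kB pattern, so such matches are common. A match is only a run of letters and says nothing of whether a factor was bound.

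Cfb, the factor B protease that pairs with C3b to form the alternative C3 convertase, was the most abundant complement gene per length of transcript, with a mean of 97.4 CPM per kb of exon. Its level was 219.9, 260.2 and 246 CPM in the libraries labelled CDH11+/+ and 299.6, 333, 292 and 276 CPM in those labelled CDH11-/-. No libraries of the groups overlapped, but the step was small beside that of C3. The mean rose from 242 ± 20.5 (SD, n = 3) to 299.95 ± 23.9 CPM (SD, n = 4), 1.24-fold, with a log2 fold change of 0.31 (SE 0.09, edgeR adjusted p = 0.0239). This call was lost without CDH11+/+ replicate 1 (adjusted p = 0.0966) or CDH11-/- replicate 2 (adjusted p = 0.064). Cfp, the convertase stabiliser properdin, had a log2 fold change of -0.32 and overlapping groups (edgeR adjusted p = 0.307), at 2.37, 1.63 and 2.32 CPM against 1.87, 1.22, 2.08 and 1.58 CPM. Cfd, which encodes the factor D protease that cleaves factor B and is known as an adipocyte product, had 0 counts in the 3 libraries labelled CDH11+/+ and 3 counts in all in those labelled CDH11-/-, and was not tested. A count of 0 allows up to 3 counts per library, 0.0354 to 0.0416 CPM. Of 9 adipocyte markers 4 were tested, 1 was higher and none lower, with a summed level of 31.9 to 54.2 CPM in libraries labelled CDH11+/+ and 42.2 to 68.5 CPM in those labelled CDH11-/-. Much of the spread of that sum came from Car3, named after its values were seen. It was at 5.74, 5.78 and 21.8 CPM against 6.19, 28.3, 27.1 and 4.01 CPM, and was not called. Adipoq, a defining fat cell marker, was at 0 in all 7 libraries. Lipe, hormone-sensitive lipase, rose from 13.4 ± 2.31 (SD, n = 3) to 20.4 ± 1.87 CPM (SD, n = 4), with a log2 fold change of 0.61 (edgeR adjusted p = 0.00523). Fabp4, a fatty acid carrier also made by endothelium, was at 16.5 ± 3.32 (SD, n = 3) and 16.3 ± 2.76 CPM (SD, n = 4).

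**Figure D2:**
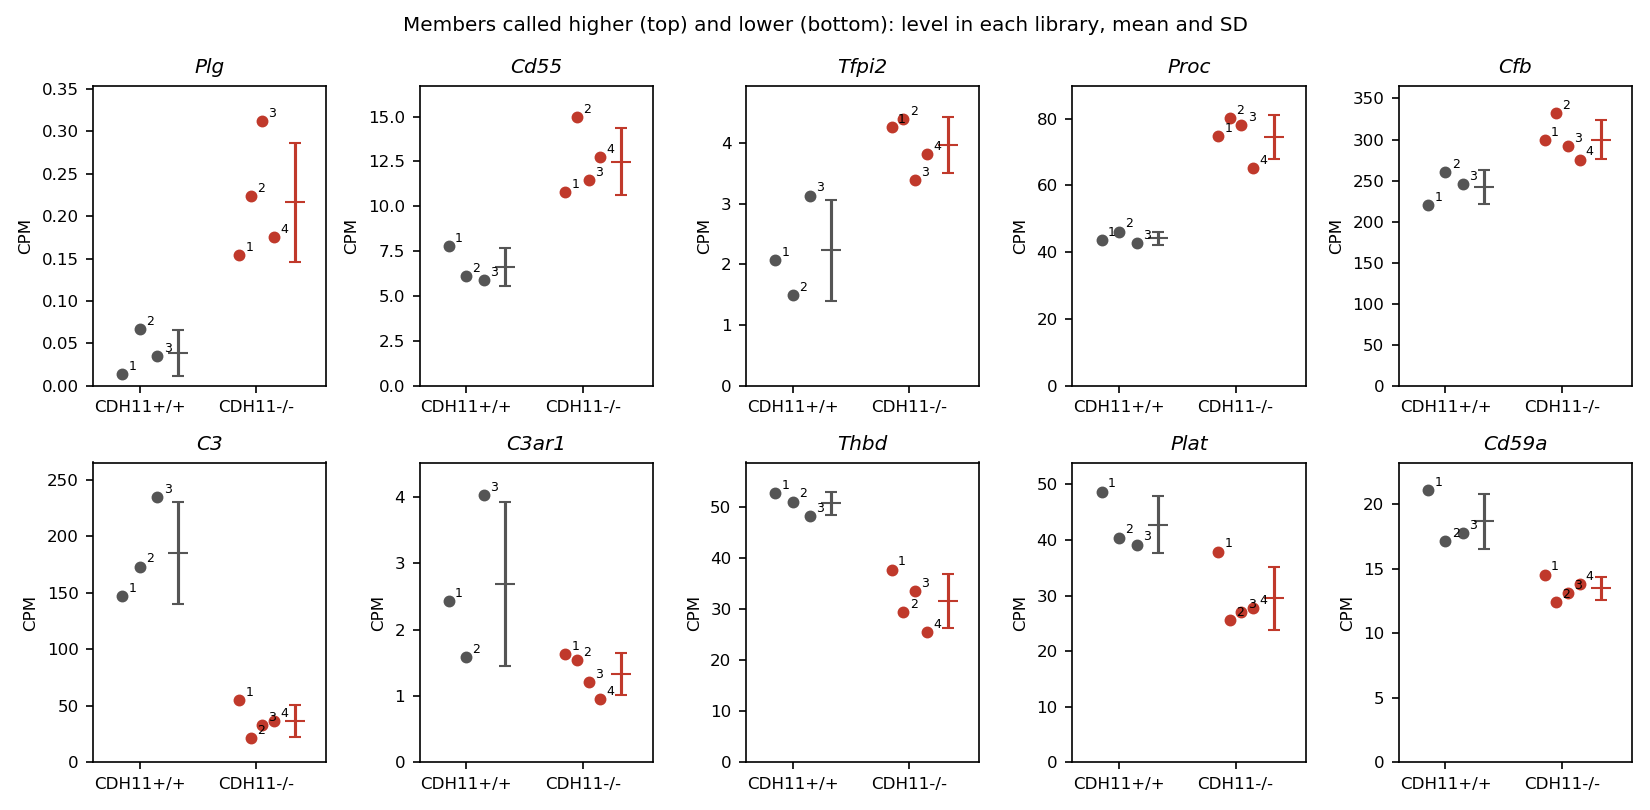
Level in CPM (y axis) of the 5 genes called higher (top row) and the 5 called lower (bottom row), with a point for each library labelled CDH11+/+ (n = 3) or CDH11-/- (n = 4), and the mean and SD as lines. The groups do not overlap for 9 of the 10 genes, and C3ar1 is the exception, with CDH11+/+ replicate 2 at 1.59 CPM beside CDH11-/- values of 0.952 to 1.63 CPM.

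The membrane regulators that shield host cells moved in different directions. Cd55, decay-accelerating factor, which takes convertases apart, was at 7.81, 6.13 and 5.88 CPM in the libraries labelled CDH11+/+ and 10.8, 14.99, 11.45 and 12.7 CPM in those labelled CDH11-/-. It rose in every library labelled CDH11-/- relative to every CDH11+/+ library. The means were 6.61 ± 1.05 (SD, n = 3) and 12.5 ± 1.85 CPM (SD, n = 4), 1.89-fold higher, with a log2 fold change of 0.92 (SE 0.14, edgeR adjusted p = 0.0017). Cd59a, which blocks assembly of the membrane pore, was at 21.1, 17.2 and 17.8 CPM against 14.6, 12.4, 13.1 and 13.8 CPM. It fell without overlap, from 18.7 ± 2.11 (SD, n = 3) to 13.5 ± 0.921 CPM (SD, n = 4), 1.38-fold lower, with a log2 fold change of -0.47 (SE 0.09, edgeR adjusted p = 0.00502). Both calls were kept in all 14 alternative analyses.

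Cd46, a cofactor for cleavage of C3b and C4b, also had groups that did not overlap, at 2.62, 2.74 and 2.65 CPM against 2.99, 3.49, 3.29 and 3.52 CPM. Its log2 fold change of 0.31 did not pass the test (edgeR adjusted p = 0.0775). Cfi, the protease that inactivates C3b with such cofactors, overlapped at 1.28, 0.803 and 1.98 CPM against 1.55, 1.91, 1.55 and 1.22 CPM (log2 fold change 0.20, edgeR adjusted p = 0.647). The near-identical or duplicated copies Cd59b (log2 fold change 0.52, edgeR adjusted p = 0.23) and Cd55b (too low to test) were scarce, and how the authors' counting divides reads between copies is not stated in the labels.

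Of the receptors for the peptides released on activation, C3ar1, the C3a receptor found on myeloid cells, was lower. It was at 2.44, 1.59 and 4.03 CPM in the libraries labelled CDH11+/+ and 1.63, 1.54, 1.21 and 0.952 CPM in those labelled CDH11-/-, and the groups overlapped slightly. The mean was 2.69 ± 1.24 (SD, n = 3) against 1.33 ± 0.31 CPM (SD, n = 4), 2.02-fold lower, with a log2 fold change of -1.01 (SE 0.31, edgeR adjusted p = 0.0377). The call was kept in 7 of 14 alternatives, fewest of the 5 falls. Without CDH11+/+ replicate 3 the log2 fold change was -0.60 (edgeR adjusted p = 0.124), and the call was also lost without CDH11+/+ replicate 1 (0.074) or CDH11-/- replicates 2, 3 or 4 (0.064, 0.093 and 0.084). C5ar1, the C5a receptor, was at 0.709, 0.722 and 1.99 CPM against 0.803, 0.307, 0.636 and 0.789 CPM, high in CDH11+/+ replicate 3 only, with a log2 fold change of -0.85 (edgeR adjusted p = 0.187) that was -0.18 without that replicate (adjusted p = 0.761).

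Myeloid markers varied beside these receptors. Of 15 macrophage markers, 1 was higher and 1 lower, with a median log2 fold change of -0.29, and their summed level overlapped, at 113.9 to 172 CPM in libraries labelled CDH11+/+ and 142 to 164 CPM in those labelled CDH11-/-, highest in CDH11+/+ replicate 3. Csf1r, the macrophage growth factor receptor, rose from 23.7 ± 8.06 (SD, n = 3) to 42.8 ± 4.08 CPM (SD, n = 4), with a log2 fold change of 0.85 (edgeR adjusted p = 0.0269). This call was kept in 9 of 14 alternatives. Ms4a7, named after its values were seen as the marker that fell, went from 1.46 ± 0.687 (SD, n = 3) to 0.747 ± 0.112 CPM (SD, n = 4), with a log2 fold change of -0.97 (edgeR adjusted p = 0.0462) that was -0.58 without CDH11+/+ replicate 3 (adjusted p = 0.173). Mertk, a phagocytic receptor, was at 57.4 ± 3.91 (SD, n = 3) and 58.6 ± 3.54 CPM (SD, n = 4). Together Mertk and Csf1r supplied much of the summed macrophage level. A log2 fold change below 0 was seen in 10 of the 15 markers and above 0 in 5. Of 7 neutrophil markers 5 were tested and 4 were lower, with Mpo near 0 in every library. The summed neutrophil level was 3.00 to 7.31 CPM against 0.78 to 2.82 CPM, and the number called lower was 1 without CDH11+/+ replicate 3 and 2 without CDH11+/+ replicate 1 or CDH11-/- replicate 2. The part of these cells in the receptor values was not tested.

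None of the 7 classical pathway genes passed the edgeR test with all libraries. C2, the protease that joins C4b in the classical convertase, was at 27.1, 30.5 and 37.0 CPM in the libraries labelled CDH11+/+ and 27.3, 31.3, 29.1 and 26.9 CPM in those labelled CDH11-/-, with a log2 fold change of -0.14 (edgeR adjusted p = 0.352). C1s1, the protease of the C1 complex that cleaves C4 and C2, was at 18.1, 13.6 and 22.6 CPM against 15.5, 17.1, 20.1 and 14.8 CPM, with a log2 fold change of -0.10 (edgeR adjusted p = 0.69). Both sets overlapped widely. Its partner protease C1ra and the 3 chains of the recognition molecule C1q (C1qa, C1qb, C1qc, side by side on chromosome 4 and transcribed by macrophages) had log2 fold changes between -0.33 and -0.10. Without CDH11+/+ replicate 3, C1qa, C1qc, C1ra and C1s1 turned to log2 fold changes between 0.08 and 0.33, and none was called. Per kb of exon, C1qa was 1.96 to 1.99 times C1qc in the libraries labelled CDH11+/+ and 1.72 to 1.95 times in those labelled CDH11-/-, while C1qb was 2.45 to 3.47 times C1qc against 2.24 to 2.81 times. C1qb, singled out after its values were seen, became lower when CDH11+/+ replicate 2 was left out (log2 fold change -0.62, edgeR adjusted p = 0.021).

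C4b, the C4 gene, was singled out after its values were seen because CDH11+/+ replicate 3 decides its result. It was at 8.70, 7.18 and 21.5 CPM in the libraries labelled CDH11+/+ and 13.5, 14.7, 16.7 and 12.3 CPM in those labelled CDH11-/-. The first 2 CDH11+/+ libraries lay below every CDH11-/- library and the other lay above them. With all libraries the log2 fold change was 0.20 (edgeR adjusted p = 0.735), and without CDH11+/+ replicate 3 it was 0.84 (adjusted p = 0.00299). C4a, the near-identical neighbouring copy, was at 5.39, 6.66 and 5.56 CPM against 15.8, 22.9, 20.1 and 18.1 CPM. It rose 3.28-fold without overlap, from 5.87 ± 0.692 (SD, n = 3) to 19.2 ± 3.02 CPM (SD, n = 4), with a log2 fold change of 1.71 (SE 0.14, edgeR adjusted p = 8.51e-05). How reads were split between C4a and C4b is uncertain, and the mixed strain background means that the copies carried by each mouse are not known here.

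The lectin pathway proteases did not pass the edgeR test. Masp2, which cleaves C4 and C2 after lectin binding, was at 0.51, 0.589 and 0.693 CPM against 1.16, 0.894, 0.856 and 0.852 CPM, groups that did not overlap, with a log2 fold change of 0.65 (edgeR adjusted p = 0.0547). It was called by limma with all libraries, in voom (0.69, adjusted p = 0.0423) and on the deposited normalized values (0.76 and 0.68, adjusted p = 0.0423 and 0.0391). Masp2 overlaps Tardbp on the opposite strand, and the strand setting of the counting is not stated in the labels. Masp1, its relative, was at 2.04, 1.28 and 2.64 CPM against 1.63, 1.55, 2.15 and 2.21 CPM, with a log2 fold change of -0.08 (edgeR adjusted p = 0.84) that was 0.17 without CDH11+/+ replicate 3. C7, a component of the membrane pore and the only terminal component among the 39 genes, was at 3.61, 1.78 and 5.30 CPM against 6.12, 6.05, 10.5 and 7.87 CPM. Its groups did not overlap, and its log2 fold change of 1.10 (SE 0.37) fell short of the threshold in the edgeR test (adjusted p = 0.0576) and passed it without CDH11+/+ replicate 3 (1.498, adjusted p = 0.0242). With all libraries it was called by DESeq2 (adjusted p = 0.00288) and by limma in voom (0.018) and on the deposited normalized values (0.0334 and 0.0323).

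None of the 6 clotting factor genes passed the edgeR test with all libraries, and F5 passed it in limma. F8, the cofactor of factor IXa, was at 16.2, 15.7 and 15.01 CPM in the libraries labelled CDH11+/+ and 13.2, 16.3, 14.9 and 16.5 CPM in those labelled CDH11-/-, a log2 fold change of -0.04 (edgeR adjusted p = 0.764). F3, tissue factor, which starts coagulation, was at 15.4, 12.2 and 14.7 CPM against 14.4, 10.9, 11.6 and 8.51 CPM. Its log2 fold change was -0.31 (edgeR adjusted p = 0.188), and it was called lower without CDH11-/- replicate 1 (-0.45, adjusted p = 0.0449). F10, F13a1 (the subunit that crosslinks fibrin) and Vwf (the platelet adhesion protein of endothelium) had log2 fold changes between -0.21 and -0.03, which turned to between 0.19 and 0.48 without CDH11+/+ replicate 3, none called.

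F5, the cofactor of factor Xa and singled out after its values were seen, changed its call both with CDH11+/+ replicate 3 and with the tool. It was at 1.30, 1.74 and 5.94 CPM in the libraries labelled CDH11+/+ and 5.74, 7.46, 7.61 and 6.07 CPM in those labelled CDH11-/-. Replicate 3 alone lay within the CDH11-/- range. The log2 fold change was 1.16 (SE 0.51, edgeR adjusted p = 0.134) with it and 2.13 (adjusted p = 0.000182) without it. With all libraries limma called it, in voom with quality weights (1.79, adjusted p = 0.00523) and on the deposited normalized values (1.47 and 1.43, adjusted p = 0.0379 and 0.037).

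The fibrinogen chains, which sit together on chromosome 3 and are encoded by Fga, Fgb and Fgg, varied strongly between libraries of a group. Fga was at 26.9, 28.7 and 51.8 CPM in the libraries labelled CDH11+/+ and 12.3, 18.9, 30.4 and 30.7 CPM in those labelled CDH11-/-. Fgg was at 1.11, 1.03 and 25.6 CPM against 1.43, 2.63, 3.48 and 2.68 CPM. Fgb was at 0.014, 0.067 and 2.76 CPM against 0.083, 0.545, 0.636 and 0.539 CPM, which is between 1 and 239 counts. CDH11+/+ replicate 3 was the highest of the 7 libraries for all 3 chains. For Fgg the other 6 libraries lay between 1.03 and 3.48 CPM, while for Fga the next highest library was at 30.7 CPM.

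None of the chains passed the edgeR test with all libraries: the log2 fold change was -0.63 for Fga (edgeR adjusted p = 0.274), -1.86 for Fgg (SE 1.16, adjusted p = 0.281) and -1.09 for Fgb (SE 1.37, adjusted p = 0.592). Without CDH11+/+ replicate 3, Fgg and Fgb turned to higher in the libraries labelled CDH11-/-, with log2 fold changes of 1.25 (adjusted p = 0.0244) and 3.39 (adjusted p = 0.0341), and Fga stayed at -0.28 (adjusted p = 0.664). In limma-voom with quality weights and all libraries, Fgg and Fgb were also above 0, at 0.32 and 2.23, without a call. The Fgb value without that replicate rests on 1 and 5 counts in the remaining CDH11+/+ libraries. The chains are joined in equal numbers in the protein, but their transcripts were far from equal: per kb of exon the means were 9.48 CPM for Fga, 2.59 for Fgg and 0.174 for Fgb. Fga exceeded Fgg 16.9- and 19.4-fold per kb in CDH11+/+ replicates 1 and 2, 1.41-fold in replicate 3 and 5.01- to 7.97-fold in the libraries labelled CDH11-/-.

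Hepatocyte markers and an acute-phase signal gene were checked beside these chains. Of 10 hepatocyte markers 7 were tested, 1 was higher and 2 lower, Serpina3k was at 0 in every library and Ahsg had at most 1 count in any. Ttr, transthyretin, also made by other epithelia, carried much of the summed level, at 17.97, 18.5 and 0.289 CPM in the libraries labelled CDH11+/+ and 0.201, 57.6, 0.671 and 0.276 CPM in those labelled CDH11-/-. The sum of all 10 was 19.0 to 40.9 CPM against 11.5 to 72.2 CPM. Without Ttr, left out after its values were seen, it was 17.75, 22.35 and 18.7 CPM against 11.3, 14.6, 15.01 and 12.6 CPM, so CDH11+/+ replicate 3 lay between the others of its group and the groups did not overlap. The markers that fell were the apolipoproteins Apoh and Apoc3, and the marker that rose was Fgl1, a fibrinogen-like protein, at 0.0201 ± 0.0237 (SD, n = 3) and 0.651 ± 0.093 CPM (SD, n = 4). These names were chosen after the values were seen, and the part of such cells in the fibrinogen values was not tested. Socs3, a target of interleukin 6 signalling, was at 4.69, 3.91 and 14.6 CPM against 2.60, 2.44, 2.71 and 2.12 CPM, and so was also highest in CDH11+/+ replicate 3. It was lower in the libraries labelled CDH11-/- with a log2 fold change of -1.65 (edgeR adjusted p = 0.0295), and -0.81 without that replicate (adjusted p = 0.00559). The Socs3 call was kept in 9 of 14 alternatives. It was lost whichever CDH11-/- library was omitted (edgeR adjusted p = 0.065 to 0.077) and without a filter (0.079). Il6 had at most 10 counts in any library and was not tested.

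**Figure D3:**
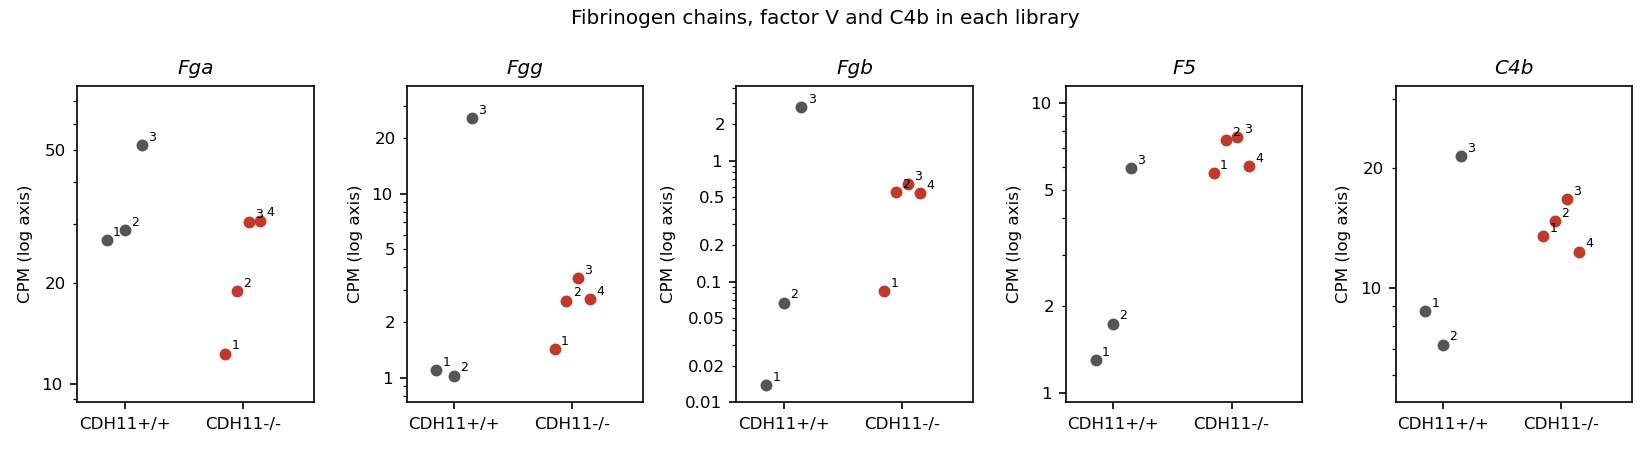
Level in CPM on a log axis (y axis) of the fibrinogen chains, F5 and C4b in each library labelled CDH11+/+ (n = 3) or CDH11-/- (n = 4), 1 point per library. CDH11+/+ replicate 3 is above every other library for Fga, Fgb, Fgg and C4b, and for F5 it lies among the CDH11-/- libraries at 5.94 CPM.

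The bases before the RefSeq start of each fibrinogen gene are shown because the chains share a locus and a protein but not a level. All are from RefSeq (GRCm38.p6), 5′ to 3′, with matches to the 3 patterns given for C3 in capitals. The Fga window, chr3:83025903-83026075 on the plus strand, ends where the GENCODE gene begins, 77 bases short of the RefSeq start. The Fgb window is chr3:83049864-83050113 on the minus strand and the Fgg window is chr3:83007474-83007723 on the plus strand.
Fga: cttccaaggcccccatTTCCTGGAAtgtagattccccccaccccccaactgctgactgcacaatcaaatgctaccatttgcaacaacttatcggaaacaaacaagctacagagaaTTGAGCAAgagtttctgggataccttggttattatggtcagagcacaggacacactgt
Fgb: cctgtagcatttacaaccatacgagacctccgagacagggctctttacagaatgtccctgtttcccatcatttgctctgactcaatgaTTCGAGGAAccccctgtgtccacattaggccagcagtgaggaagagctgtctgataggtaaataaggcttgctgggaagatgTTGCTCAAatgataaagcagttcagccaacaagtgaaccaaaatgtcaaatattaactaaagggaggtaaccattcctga
Fgg: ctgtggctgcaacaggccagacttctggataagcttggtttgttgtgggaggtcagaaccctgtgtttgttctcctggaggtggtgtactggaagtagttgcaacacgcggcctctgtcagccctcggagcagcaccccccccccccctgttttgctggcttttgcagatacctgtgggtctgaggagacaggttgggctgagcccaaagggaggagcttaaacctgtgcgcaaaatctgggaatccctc
Fga held the STAT pattern as TTCCTGGAA, 234 to 226 bases before the RefSeq start. It held the C/EBP pattern on the opposite strand, which reads TTGAGCAA on the strand shown, 135 to 128 bases before that start. Fgb held the same pair, as TTCGAGGAA at 162 to 154 and TTGCTCAA at 80 to 73. The Fgg window held none of the 3 patterns. Over all 32851 windows, 7.02% held the STAT pattern and 9.56% the C/EBP pattern.

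The protein C system, which limits thrombin generation, split. Thbd, thrombomodulin, the thrombin receptor that lets thrombin activate protein C, was at 52.7, 51.0 and 48.2 CPM in the libraries labelled CDH11+/+ and 37.7, 29.4, 33.4 and 25.5 CPM in those labelled CDH11-/-. It fell without overlap, from 50.6 ± 2.27 (SD, n = 3) to 31.5 ± 5.25 CPM (SD, n = 4), 1.61-fold lower, with a log2 fold change of -0.68 (SE 0.12, edgeR adjusted p = 0.00322). Proc, protein C itself, was at 43.6, 46.2 and 42.6 CPM against 74.7, 80.3, 78.0 and 65.1 CPM. It rose without overlap, from 44.1 ± 1.84 (SD, n = 3) to 74.5 ± 6.67 CPM (SD, n = 4), 1.69-fold, with a log2 fold change of 0.76 (SE 0.08, edgeR adjusted p = 0.000268), the smallest adjusted p of the 38 genes. Both calls were kept in all 14 alternatives. Procr, the endothelial receptor that presents protein C, was at 0.709, 1.06 and 1.63 CPM against 1.78, 1.23, 1.64 and 1.62 CPM. Its log2 fold change of 0.47 did not pass the test (edgeR adjusted p = 0.239), and without CDH11+/+ replicate 3 it did (0.82, adjusted p = 0.0378).

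Endothelial and proximal tubule markers moved in the same libraries. Of 12 endothelial markers, 5 were lower and none higher, with a summed level of 642 to 838 CPM in libraries labelled CDH11+/+ and 515 to 605 CPM in those labelled CDH11-/-. The number lower was 2 without CDH11+/+ replicate 1, 3 without CDH11+/+ replicate 3 or CDH11-/- replicates 1 or 4, and 7 without CDH11+/+ replicate 2. Flt1, a receptor for vascular endothelial growth factor, fell from 118 ± 12.3 (SD, n = 3) to 73.6 ± 5.93 CPM (SD, n = 4), with a log2 fold change of -0.68 (edgeR adjusted p = 0.00069). Of 8 proximal tubule markers, 6 were higher and none lower, with a summed level of 10267 to 10738 CPM against 21220 to 23934 CPM. Kap, an androgen-regulated proximal tubule transcript, supplied much of that sum, at 1718 ± 365 (SD, n = 3) and 8519 ± 773 CPM (SD, n = 4), with a log2 fold change of 2.31 (edgeR adjusted p = 4.79e-05). The part of these cell types in the values of Thbd and Proc was not tested.

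The tissue factor pathway inhibitors differed in their calls. Tfpi, the main inhibitor of tissue factor, was at 3.25, 4.11 and 4.54 CPM against 3.91, 4.95, 3.76 and 3.60 CPM, with a log2 fold change of 0.03 (edgeR adjusted p = 0.905). Tfpi2, a related Kunitz-type protease inhibitor of the matrix, was at 2.07, 1.498 and 3.13 CPM in the libraries labelled CDH11+/+ and 4.26, 4.39, 3.39 and 3.82 CPM in those labelled CDH11-/-. It rose from 2.23 ± 0.83 (SD, n = 3) to 3.97 ± 0.455 CPM (SD, n = 4), 1.77-fold, with a log2 fold change of 0.82 (SE 0.23, edgeR adjusted p = 0.0257). The call was lost without CDH11+/+ replicates 1 or 2 (adjusted p = 0.095 and 0.059) or CDH11-/- replicates 1 or 2 (0.056 and 0.068), and in limma on the deposited normalized values (0.064 and 0.063). F2r, the main thrombin receptor of many cells, was at 69.9, 68.0 and 58.4 CPM against 68.4, 53.2, 54.5 and 51.1 CPM. Its log2 fold change was -0.20 (edgeR adjusted p = 0.19), and it was called lower without CDH11-/- replicate 1 (-0.31, adjusted p = 0.0245).

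In clot dissolution, the tissue-type activator fell and plasminogen transcripts, although very scarce, rose. Plat, tissue-type plasminogen activator, was at 48.7, 40.4 and 39.2 CPM in the libraries labelled CDH11+/+ and 37.9, 25.5, 27.0 and 27.7 CPM in those labelled CDH11-/-. The groups did not overlap, although CDH11-/- replicate 1 came close to the CDH11+/+ range. The mean fell from 42.8 ± 5.17 (SD, n = 3) to 29.5 ± 5.65 CPM (SD, n = 4), 1.45-fold lower, with a log2 fold change of -0.53 (SE 0.14, edgeR adjusted p = 0.0225). The call was lost without CDH11+/+ replicate 1 (adjusted p = 0.087) or CDH11-/- replicates 2, 3 or 4 (0.054, 0.062 and 0.056).

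Plau, urokinase, was the most abundant of the 39 genes, at 128 CPM per kb of exon and 27.7% of their summed CPM. It was at 258.5, 162 and 281 CPM against 397, 307, 407 and 307 CPM, groups that did not overlap. The mean was 234 ± 63.3 (SD, n = 3) and 354 ± 55.1 CPM (SD, n = 4), and the log2 fold change of 0.60 (SE 0.20) did not pass the edgeR test (adjusted p = 0.0554). It passed in DESeq2 (adjusted p = 0.00563) and in limma by voom (0.0238) and on the deposited normalized values (0.0362 and 0.0352). Plaur, its receptor, was at 3.63, 2.14 and 2.87 CPM against 2.21, 1.20, 2.01 and 1.74 CPM, with a log2 fold change of -0.68 (SE 0.24, edgeR adjusted p = 0.0601), and was called lower by DESeq2 (adjusted p = 0.0244) and without CDH11+/+ replicate 2 (-0.85, adjusted p = 0.034). Plg, plasminogen, had 1, 5 and 3 counts in the libraries labelled CDH11+/+ and 13, 16, 27 and 14 counts in those labelled CDH11-/-. That is 9 counts against 70, a rate 5.59 times higher (95% exact interval 2.78 to 12.7, counting error only), with a log2 fold change of 2.43 (SE 0.54, edgeR adjusted p = 0.00899). At a mean of 0.216 ± 0.0704 CPM (SD, n = 4) in the libraries labelled CDH11-/-, it was a scarce transcript in every library.

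Ratios within a library, which do not depend on library size, set partners side by side. They were chosen after the values were seen and are given as a description. C3 was 0.365 to 0.525 times Cfb per kb of exon in the libraries labelled CDH11+/+ and 0.035 to 0.101 times in those labelled CDH11-/-. Cfb and C2, adjacent genes on chromosome 17 in the same orientation, stood at 9.10 to 11.7 against 13.8 to 15.02. Cd55 was 0.124 to 0.138 times Cd59a against 0.277 to 0.450 times. Proc was 1.24 to 1.36 times Thbd against 2.98 to 4.10 times. Plau was 10.5 to 18.9 times Plat against 27.7 to 39.7 times. In each of these 5 pairs the groups did not overlap, whereas the ratio of Fga to Fgg did. For every pair but Cfb and C2 this was fixed in advance. The genes of those pairs had each kept the groups apart, in opposite directions, so their ratio had to do so and adds no support. Cfb had kept the groups apart by itself, so its ratio to C2 is only a description. The ratio of C4a to C4b was 0.237 to 0.851 against 1.07 to 1.43, where C4a had kept the groups apart by itself. How reads were split between those copies is uncertain.

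**Figure D4:**
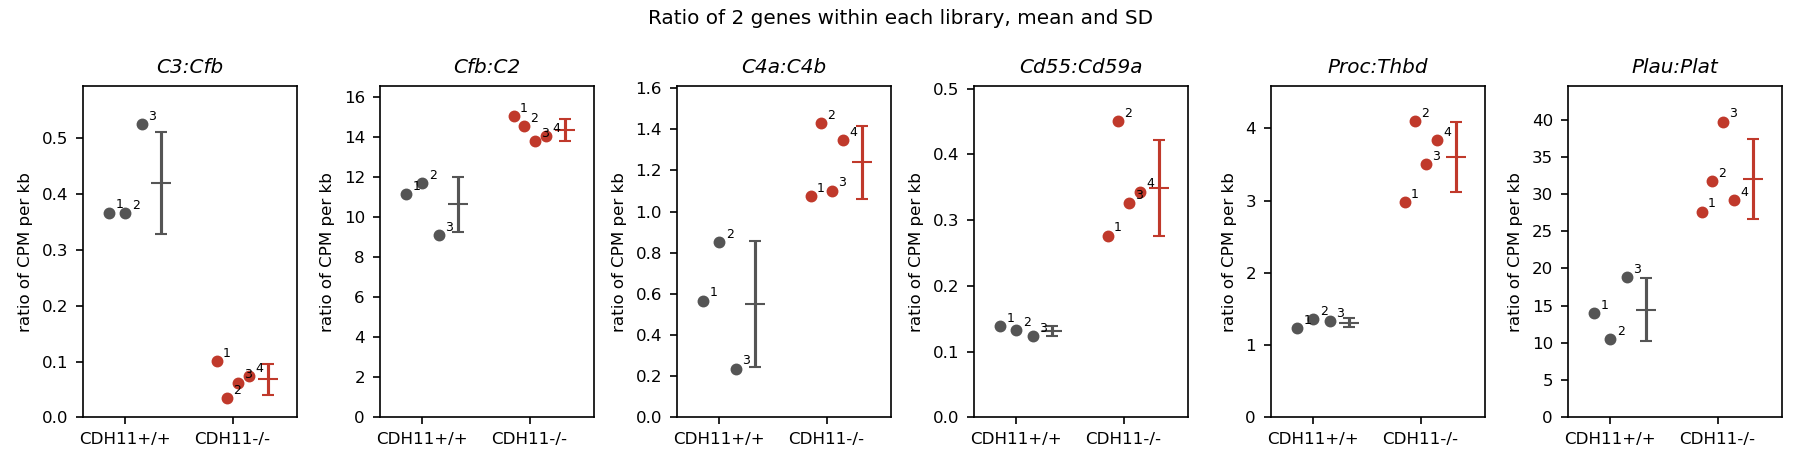
Ratio of the CPM per kb of exon of 2 genes within each library (y axis, starting at 0), with a point for each library labelled CDH11+/+ (n = 3) or CDH11-/- (n = 4), and the mean and SD as lines. The Proc to Thbd ratio is 1.24 to 1.36 in the CDH11+/+ libraries and 2.98 to 4.10 in the others. The C4a to C4b ratio, for which the split of reads is uncertain, is 0.237 to 0.851 and 1.07 to 1.43.

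Other genes of the same pathways, 72 taken from a list of complement and coagulation genes, were counted for context. Of 47 that could be tested, 14 were higher and 5 lower (40.4% called, against the background of 29.7%). The number higher was 9 without CDH11+/+ replicate 1. The number lower was 3 without CDH11+/+ replicates 1 or 3 or CDH11-/- replicates 2 or 4, and 11 without CDH11+/+ replicate 2. Serpinf2, the plasmin inhibitor alpha-2-antiplasmin, rose from 71.1 ± 8.06 (SD, n = 3) to 221 ± 9.88 CPM (SD, n = 4), 3.12-fold, with edgeR adjusted p = 1.49e-05. Proz, protein Z, a cofactor in the inhibition of factor Xa, rose from 0.951 ± 0.377 (SD, n = 3) to 5.70 ± 0.966 CPM (SD, n = 4), 5.94-fold, with edgeR adjusted p = 0.000247. C8a, a chain of the membrane pore component C8, rose 2.07-fold (edgeR adjusted p = 0.0036), C1rl, a C1r-like protease, rose 1.51-fold (adjusted p = 0.0054) and Itga2b, a chain of the platelet fibrinogen receptor, rose 1.57-fold (adjusted p = 0.00376). Kng2 and Kng1, kininogens, which carry bradykinin, fell 1.77-fold (edgeR adjusted p = 0.000216) and 2.37-fold (adjusted p = 0.00305).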

How the data were processed

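Whole-kidney RNA was sequenced from 3 mice labelled CDH11+/+ and 4 labelled CDH11-/-, with directional libraries, per the labels' protocols. The authors' deposited expected counts (estimated reads per gene, given as whole numbers) were tested. The authors' deposited normalized signal values, whose gene-specific factors are not given in the sources used here, entered only as alternatives. DRAGEN, DESeq2 and the build mm10 are named, without versions, per the submitters' processing notes. Aligner settings, annotation and strand use are not given in the sources used here.

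Symbols, positions and exon lengths came from GENCODE M21 on mm10, and 42170 of 42256 identifiers matched a symbol. All 21 pairs of libraries differed beyond sampling noise (median chi-square per gene 2.69 to 12.82 over genes with at least 20 counts in a pair), so each counted as 1 sample. P-values measure the spread between these mice, and counting intervals and floors cover counting error only. Genes were filtered with filterByExpr (minimum count 10), leaving 17964, and tested with edgeR 4.0.16 in R 4.3.3 (quasi-likelihood, robust, TMM scaling, no covariates, 2-sided). A call is a Benjamini-Hochberg adjusted p under 0.05, and the SE is the log2 fold change divided by the square root of the F statistic. The edgeR step was tested on simulated data. The biological coefficient of variation was 15.2%.

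Alternatives were DESeq2 1.42.0, limma 3.58.1 (voom with quality weights, and limma-trend on log2 of the normalized value plus 1 or 8), relative log expression scaling, a floor of 1 mean CPM, all genes unfiltered, and the omission of each library. Replicate numbers follow the order of deposit and pair nothing. The members and lists were chosen with earlier results of these data known. Called genes and the most abundant others of each role were given per library, with up to 8 other pathway genes and 4 acute-phase genes by adjusted p, and up to 2 markers of each cell type. A gene that meets this rule is not reported here. Of the 39 genes, 27 had a RefSeq promoter window in the tables used here.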

Additional observations from a re-analysis of the deposited data

Results flagged for a closer look

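Among the 38 tested genes, the 4 libraries labelled CDH11-/- were checked for a single library far from the other 3 by Dixon's gap-to-range ratio, at its 95% critical value. Such a check flags about 1 in 20 groups by chance, and it flagged 3 of 38. C1qb, a chain of C1q, was lowest in CDH11-/- replicate 2 at 5.42 CPM (ratio 0.836). Masp2, the lectin pathway protease, was highest in CDH11-/- replicate 1 at 1.16 CPM (ratio 0.862). F10, coagulation factor X, was highest in CDH11-/- replicate 4 at 0.226 CPM (ratio 0.853), which is 18 counts. The 3 libraries labelled CDH11+/+ are too few for this check, so the position of CDH11+/+ replicate 3 was not tested by it.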

How the results depend on the processing

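Over the 55 named or member genes, 760 values were recomputed under alternatives. Of these, 667 kept direction and side of the threshold, 24 lost and 25 gained a call in the same direction, and 44 in 15 genes changed sign. With all libraries none of these 15 genes was called, and 2 of the 44 values were: Fgb and Fgg without CDH11+/+ replicate 3. When a library was omitted the log2 fold change ranged from -1.67 to 3.39 for Fgb, -2.40 to 1.25 for Fgg, -0.58 to 0.20 for C1qa, -0.45 to 0.33 for C1qc, -0.29 to 0.28 for C1ra, -0.27 to 0.0823 for C1s1, -0.29 to 0.67 for C1rb, -0.0807 to 0.84 for C4b, -0.0683 to 0.57 for Cfi, -0.31 to 0.17 for Masp1, -0.0823 to 0.022 for F8, -0.49 to 0.20 for F10, -0.35 to 0.48 for F13a1, -0.28 to 0.19 for Vwf and -0.11 to 0.13 for Tfpi. In limma-voom the sign turned for C1qc (0.11), C1ra (0.11), Masp1 (0.0455), F13a1 (0.29), Vwf (0.0612), Fgb (2.23) and Fgg (0.32). On the deposited normalized values with pseudocounts of 1 and 8 it turned for F8 (0.0979 and 0.0974), F10 (0.15 and 0.10), F13a1 (0.0317 and 0.0258), Vwf (0.148 and 0.146) and Fgb (1.03 and 0.35). C1rb, at 0.0078, became -0.0017 with DESeq2, -0.0038 with relative log expression scaling and -0.0027 without a filter. DESeq2 gave no adjusted p for Fgb and Fgg. The 5 members higher became 9 with limma-voom and quality weights and 8 with limma-trend on the deposited normalized values at either pseudocount, and ranged from 3 (without CDH11+/+ replicate 1 or CDH11-/- replicate 2) to 11 (without CDH11+/+ replicate 3) when a library was omitted. The 5 members lower ranged from 3 (without CDH11+/+ replicate 1 or CDH11-/- replicates 2, 3 or 4) to 7 (without CDH11+/+ replicate 2 or CDH11-/- replicate 1). Other pathway genes higher, 14 in all, ranged from 9 to 14, and lower, 5 in all, from 3 to 11. Over all genes there were 5327 calls, 3804 to 5300 when a library was omitted and 4655 to 6005 (DESeq2) under the other alternatives, each within 1.5 times. The cause of these shifts was not tested. C3, Cd55, Cd59a, Thbd, Proc and Plg were called whichever library was omitted. Group size limits the precision of abundant members, and counts limit Plg, F10 and Cfd. Fgb had 1, 5 and 239 counts in the libraries labelled CDH11+/+. Spread between these libraries limits its value, and counts limit it too without CDH11+/+ replicate 3. No paired analysis was possible because replicate numbers follow the order of deposit and the titles share none between groups.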

Other observations

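The acute-phase list, 20 genes of the liver-type inflammatory response that includes signal components upstream of C3 and fibrinogen, had 15 tested genes, of which 5 were lower in the libraries labelled CDH11-/-. Stat3, the transcription factor that carries interleukin 6 signals, fell from 105 ± 3.58 (SD, n = 3) to 70.3 ± 6.14 CPM (SD, n = 4), with a log2 fold change of -0.58 (edgeR adjusted p = 0.000707). Il6ra, the interleukin 6 receptor, fell from 9.64 ± 1.44 (SD, n = 3) to 5.99 ± 0.736 CPM (SD, n = 4), with a log2 fold change of -0.69 (edgeR adjusted p = 0.00466). Both calls were kept in all 14 alternatives, and in neither did the groups overlap.

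Of 7 podocyte markers 5 were lower, with a summed level of 444 to 544 CPM in libraries labelled CDH11+/+ and 288 to 407 CPM in those labelled CDH11-/-. Of 6 principal cell markers of the collecting duct 5 were lower, with a summed level of 504 to 686 CPM against 366 to 437 CPM. Of 5 intercalated cell markers 3 were lower, a count that fell to 0 without CDH11+/+ replicate 1 or CDH11-/- replicates 1 or 3. Of 8 lymphocyte and 5 erythroid markers none was called with all libraries. Of 7 platelet markers 4 were tested and 2 were higher, with a summed level of 3.74 to 3.85 CPM against 5.46 to 6.38 CPM. Itga2b, called higher, supplied most of that sum, at 2.67 ± 0.165 (SD, n = 3) and 4.18 ± 0.313 CPM (SD, n = 4). The other call, Ppbp, was kept in 9 of 13 alternatives. Pf4 and Clec1b, named after their values were seen, were not called, with log2 fold changes of 0.05 and 0.01.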
